A study of Rattus norvegicus with 9 samples.

Results

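The genes described here encode heterotrimeric G protein subunits, regulators of G protein signaling (RGS), adenylyl cyclases and cyclic nucleotide phosphodiesterases. They were chosen by name: a gene was a member when a probe set carried it as its single annotated symbol and that symbol began with Gna, Gnb, Gng or Rgs, or with Adcy or Pde followed by a digit. This gave 47 of the 4736 genes named on the array, namely 9 alpha subunits, 5 beta subunits, 5 gamma subunits, 9 RGS genes, 7 adenylyl cyclases and 12 phosphodiesterases. The members had 71 probe sets of the 8740 tested, and each gene was represented by the probe set with the highest mean over all arrays. Of the members, 30 had 1 probe set and 17 had several.

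Sympathetic neurons dissociated from superior cervical ganglia of Holtzman rat embryos at embryonic day 21 were grown in defined medium with nerve growth factor at 100 ng/ml, and the antimitotic cytosine arabinoside was given for 48 hr to remove dividing cells. From day 5 in vitro, human recombinant bone morphogenetic protein-7 (BMP-7) was added at 50 ng/ml for 6 hr (BMP6h) or 24 hr (BMP24h), or cultures received medium alone (control). Total RNA, pooled for each sample from several cultures of 1 dissection, was hybridized to Affymetrix rat genome arrays, with 3 arrays per condition and 9 arrays in all. Hybridization used 10 µg of cRNA in batch 1, which held replicate 1 of every condition, and 5 µg in batch 2, which held replicates 2 and 3. All neurons, control neurons included, had received nerve growth factor and cytosine arabinoside.

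When a ligand binds a G protein-coupled receptor, the alpha subunit exchanges GDP for GTP and parts from the beta-gamma dimer, and both then act on effectors. Stimulatory alpha subunits raise cyclic AMP through adenylyl cyclases, inhibitory ones lower it, and the Gq class activates phospholipase C-beta. RGS proteins speed GTP hydrolysis by the alpha subunit and so end the signal, while phosphodiesterases break down cyclic AMP and cyclic GMP. In sympathetic neurons these routes carry signals of muscarinic, adrenergic and neuropeptide receptors to ion channels and to the nucleus.

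The 2 members with the lowest p-values at 24 hr were Rgs4 and Pde4b, and their RefSeq promoter windows are shown because no other member was lower both at 24 hr against control and at 24 hr against 6 hr by the thresholds used below. Each window runs from 250 bases before to 50 bases after a transcription start (assembly GRCr8) and is written 5′ to 3′ on the strand of the gene. The Rgs4 window is chr13:84475835-84476134 on the minus strand, and the Pde4b windows, which belong to different starts, are chr5:122028706-122029005 and chr5:122222323-122222622 on the plus strand. Capitals mark matches to TGACG (the half-site of the cyclic AMP response element), TATAAA (a core promoter element) and GGCGCC (a GC-rich motif bound by BMP-regulated Smad proteins), searched on both strands.
Rgs4: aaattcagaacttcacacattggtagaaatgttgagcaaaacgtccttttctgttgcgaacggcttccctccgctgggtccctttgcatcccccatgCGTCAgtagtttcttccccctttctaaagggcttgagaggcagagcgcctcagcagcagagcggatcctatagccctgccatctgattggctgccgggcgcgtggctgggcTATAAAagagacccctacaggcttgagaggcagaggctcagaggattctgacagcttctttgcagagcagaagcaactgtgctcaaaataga
Pde4b, start 1: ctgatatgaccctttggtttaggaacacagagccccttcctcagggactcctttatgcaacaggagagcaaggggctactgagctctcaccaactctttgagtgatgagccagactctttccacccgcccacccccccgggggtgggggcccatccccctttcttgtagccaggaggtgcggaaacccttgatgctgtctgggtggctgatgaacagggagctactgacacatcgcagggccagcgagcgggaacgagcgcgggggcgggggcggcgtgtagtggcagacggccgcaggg
Pde4b, start 2: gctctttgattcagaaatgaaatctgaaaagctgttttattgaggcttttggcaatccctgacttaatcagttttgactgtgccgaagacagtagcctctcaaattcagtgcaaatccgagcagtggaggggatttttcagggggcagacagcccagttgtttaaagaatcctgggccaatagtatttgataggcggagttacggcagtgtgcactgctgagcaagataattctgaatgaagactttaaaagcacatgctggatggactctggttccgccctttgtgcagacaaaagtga
The Rgs4 window held 1 TGACG match, which reads CGTCA on the printed strand and begins at position -153 from the start, and 1 TATAAA match beginning at position -42. Neither Pde4b window held any of the motifs searched. Among all 33469 windows of 300 bases, TGACG was found in 21.2%, TATAAA in 14.2%, GGCGCC in 11.0% and the full element TGACGTCA, which contains the half-site on both strands, in 1.83%. Of the 47 members, 34 had 1 or more windows, 45 in all, of which 11 held TGACG (24.4%), 4 held TATAAA (8.89%), 11 held GGCGCC (24.4%) and 1 held TGACGTCA (2.22%).

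The deposited values were log2 expression values over which the 9 arrays spanned 2.69 to 14.38. Member means ran from 3.89 for Gnat3 to 14.26 for Gnas, and 30 of 47 members lay above 6.8, the median of all probe sets. Probe sets differ in affinity, so a brighter probe set need not mean a more abundant transcript. The markers of sympathetic neurons averaged 10.71 to 10.85 on control arrays, 10.81 to 10.87 on BMP6h arrays and 10.64 to 10.88 on BMP24h arrays (19 of 24 listed genes measured). Markers of satellite glia and Schwann cells averaged 7.32 to 7.39, 7.29 to 7.47 and 7.29 to 7.49 on control, BMP6h and BMP24h arrays (16 of 20 measured). This list held Ngfr and Glul, which the study reports as upregulated by BMP-7 in these neurons. Replicate 2 of BMP6h stood apart most: 17 of 47 members (36.2%) differed there by more than 0.5 from the mean of the other BMP6h arrays, as did 31.6% of all genes. On replicate 3 of BMP6h, whose comparison mean includes replicate 2, 12 members (25.5%) and 18.9% of all genes did. On replicate 3 of control, 5 members (10.6%) and 17% of all genes differed so from the other control arrays. In 26 members replicate 2 of BMP6h was the highest or lowest of all 9 arrays, and in 25 members replicate 3 of control was. These extremes were not counted over all genes.

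**Figure D1:**
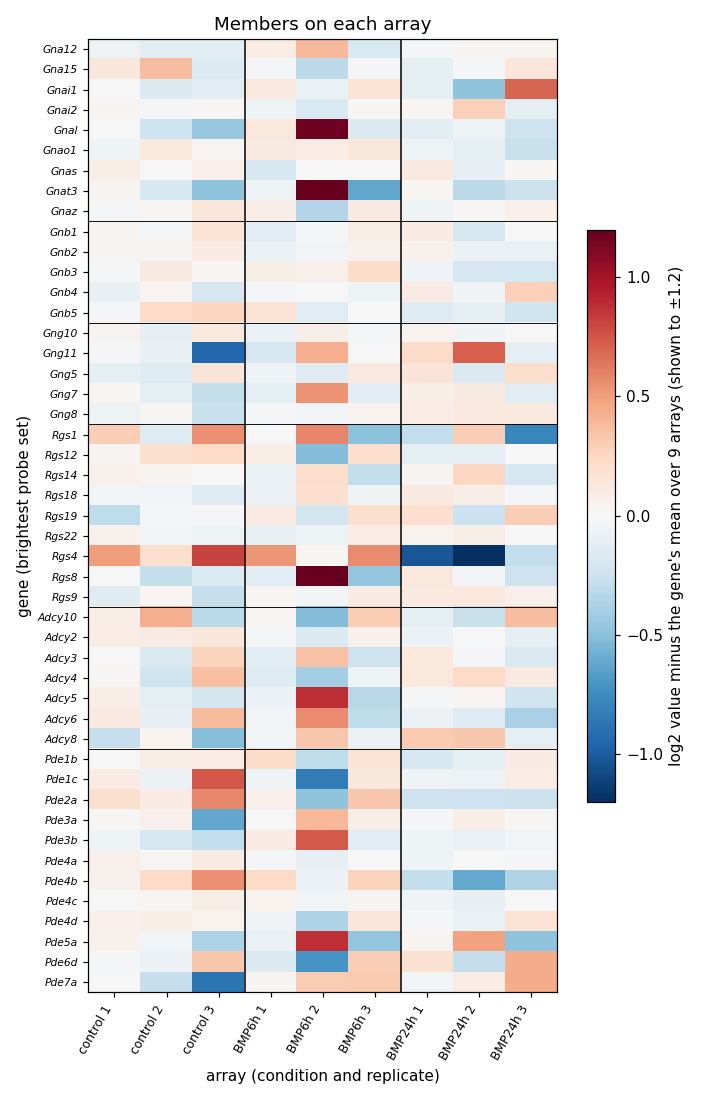
Rows are the 47 members, grouped by family, and columns are the 9 arrays. Color gives the log2 value minus the mean of that gene over the 9 arrays, shown to ±1.2. Many rows are strongly colored in replicate 2 of BMP6h and replicate 3 of control, and the Rgs4 row is low on all 3 BMP24h arrays.

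To find members regulated by BMP-7, each pair of conditions was compared with limma, with the processing batch as a factor. No member passed an adjusted p of 0.05 in any comparison, and apart from Rgs4 and Pde4b all adjusted p-values of members were between 0.887 and 1. Among all genes, 0.0422% passed for BMP6h against control, 0.211% for BMP24h against control and 0% for BMP24h against BMP6h. The thresholds of the study's methods, a fold change of 1.2 or more at an unadjusted p below 0.05, were also counted. For BMP6h against control, 1 member was higher (Pde7a) and 0 were lower, where 0.908% and 0.887% of all genes were. For BMP24h against control, 0 members were higher and 4 were lower (Gnb5, Rgs4, Pde2a and Pde4b, 8.51% of members), against a background of 1.77% higher and 2.05% lower. For BMP24h against BMP6h, 0 members were higher and 2 were lower (Rgs4 and Pde4b, 4.26% of members), with 1.58% and 1.63% of all genes. The same members were counted on the unadjusted p alone. An ordinary two-way analysis of variance called 0 members after adjustment in each comparison, but it also called 0 of all 4736 genes.

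The families as a whole were centered near 0. The median log2 fold change of the members was -0.02 for BMP6h against control, 0.00 for BMP24h against control and -0.01 for BMP24h against BMP6h, beside -0.03, 0.01 and 0.03 over all genes. At 24 hr, 23 members lay above control and 24 below. The 95% interval of the fold change lay within 1.5-fold of no change for 24 members at 6 hr (51.1%; all genes 53.8%). It did for 24 at 24 hr (51.1%; all genes 56.1%) and 28 between the times (59.6%; all genes 53.3%). Values of 4 members at 6 hr did not overlap control (8.51%; all genes 10.5%), and those of 13 members did not at 24 hr (27.7%; all genes 13.6%). Of these 13, 9 lay below control (Gnao1, Gnb3, Gnb5, Rgs4, Rgs12, Adcy2, Pde2a, Pde4a and Pde4b) and 4 above (Gna12, Gng8, Rgs9 and Rgs18). Between the times, 6 members did not overlap (12.8%; all genes 10.4%). The comparisons share arrays, BMP6h and BMP24h being set against the same controls.

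**Figure D2:**
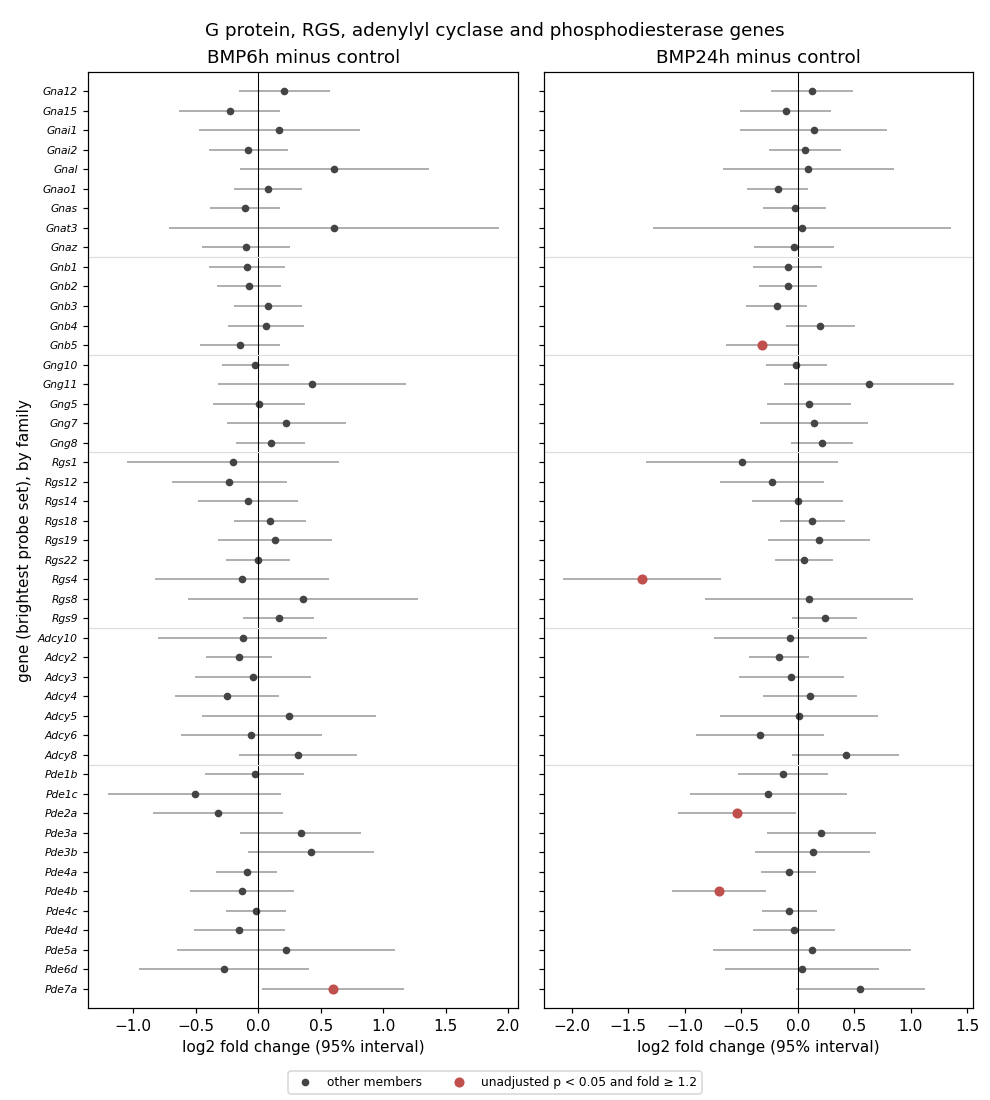
Each point is the log2 fold change of 1 member at its brightest probe set, with its 95% interval from limma, for BMP6h minus control (left) and BMP24h minus control (right). Red points differed by 1.2-fold or more at an unadjusted p below 0.05: Pde7a at 6 hr, and Gnb5, Rgs4, Pde2a and Pde4b at 24 hr. The Rgs4 interval at 24 hr lies farthest from 0.

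The alpha subunits differed little between conditions where they were bright. Gnas, the stimulatory subunit that activates adenylyl cyclase, was the brightest of the family and had values of 14.33, 14.27 and 14.32 on control arrays, 14.07, 14.26 and 14.26 on BMP6h arrays and 14.38, 14.16 and 14.28 on BMP24h arrays. All BMP6h values lay below the control values, with a log2 fold change of -0.11 (adjusted p = 0.888, limma), whereas BMP24h and control values overlapped. The other 3 Gnas probe sets overlapped control at 6 hr, with log2 fold changes of -0.02, 0.03 and -0.08, and at 24 hr all 4 lay between -0.04 and -0.01. Gnao1, the abundant neuronal subunit of the inhibitory class, had log2 values of 10.97, 11.15 and 11.04 on control arrays, 11.13, 11.10 and 11.16 on BMP6h arrays and 10.96, 10.91 and 10.75 on BMP24h arrays. Its BMP24h values lay below all others, by -0.18 against control and -0.26 against BMP6h on the log2 scale. Its second probe set gave -0.18 and -0.21, but there the BMP24h values overlapped both other conditions.

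Gnal, the stimulatory subunit best known from olfactory neurons, and Gnat3, the gustducin subunit of taste cells, had the 2 largest log2 fold changes of the members at 6 hr, 0.61 each (adjusted p = 0.887 for both, limma). Gnal had log2 values of 6.46, 7.50 and 6.17 on BMP6h arrays, against 6.34, 6.08 and 5.88 on control arrays. Gnat3, the dimmest member, had 3.83, 5.76 and 3.27 on BMP6h arrays, against 3.93, 3.70 and 3.41 on control arrays. Both values came from replicate 2 of BMP6h, without which the log2 fold changes were 0.18 for Gnal and -0.20 for Gnat3. The probe sets of Gnaz, an inhibitory-class subunit insensitive to pertussis toxin, disagreed at 6 hr. The brighter had values of 8.79, 8.37 and 8.82 on BMP6h arrays, against 8.69, 8.72 and 8.86 on control arrays (log2 fold change -0.10). The dimmer had 8.28, 8.56 and 8.17 on BMP6h arrays, against 7.95, 8.06 and 7.39 on control arrays (log2 fold change 0.53, past the study's thresholds, adjusted p = 0.887), a difference that was largest against replicate 3 of control. The other alpha subunits, Gna12, Gna15 (of the Gq class), Gnai1 and Gnai2 (inhibitory), had log2 fold changes between -0.23 and 0.21 in all comparisons at the brightest probe set. The second Gna12 probe set gave 0.51 at 6 hr and -0.44 between the times, with its highest value, 8.19, on replicate 2 of BMP6h.

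Among the beta subunits, Gnb5 was the member past the study's thresholds. Gnb5 is the divergent beta subunit that pairs with Rgs9 and its relatives rather than with gamma subunits. Its log2 values were 7.73, 7.98 and 8.00 on control arrays, 7.92, 7.61 and 7.75 on BMP6h arrays and 7.60, 7.64 and 7.51 on BMP24h arrays. BMP24h values lay below all control values, with a log2 fold change of -0.32 (95% interval -0.64 to 0.00, adjusted p = 1, limma), and the second Gnb5 probe set gave -0.32. The unadjusted p, 0.0487 with all arrays, exceeded 0.05 without control replicate 2 (0.138) or 3 (0.129), without BMP6h replicate 3 (0.0698), and without BMP24h replicate 1 (0.11), 2 (0.0629) or 3 (0.125). The difference was -0.13 in batch 1 and -0.41 in batch 2. The second Gnb5 probe set gave -0.32 (95% interval -0.91 to 0.27), but there the BMP24h values overlapped control. Rgs9, the partner of Gnb5 in photoreceptors and striatum, was higher by 0.24 on the log2 scale at 24 hr, and its BMP24h values did not overlap control.

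Gnb2, the brightest beta subunit, differed from control by -0.07 after 6 hr and -0.09 after 24 hr on the log2 scale, and Gnb1 by -0.09 at both times. The 95% intervals of Gnb1, Gnb2, Gnb3 and Gnb4 at the brightest probe set excluded a 1.5-fold difference at both times. The other probe sets of Gnb1 did not exclude it and differed in direction: AF022083_s_at gave 0.25 at 6 hr (95% interval -0.19 to 0.70), with all values above control, and 0.36 at 24 hr (95% interval -0.08 to 0.80), whereas U88324_g_at gave -0.17 and -0.22. Of the gamma subunits, Gng5 was the brightest (log2 fold change 0.00 after 6 hr and 0.10 after 24 hr, against 0.18 and -0.22 at its dimmer probe set), and Gng8, a subunit known from olfactory neurons, had 0.10 and 0.21. Gng11, a farnesylated gamma subunit expressed in many tissues, had the highest log2 fold change of the members at 24 hr, 0.63 (95% interval -0.12 to 1.38). Its values were 5.39, 5.33 and 4.47 on control arrays, 5.22, 5.85 and 5.41 on BMP6h arrays and 5.64, 6.14 and 5.30 on BMP24h arrays. The groups overlapped, and without control replicate 3, the lowest of the 9, the value at 24 hr was 0.30.

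Rgs4 gave the largest difference of all members. Rgs4 speeds GTP hydrolysis by alpha subunits of the Gi/o and Gq classes and is expressed in brain and autonomic neurons. Its single probe set (U27767_at) had log2 values of 10.17, 9.87 and 10.49 on control arrays, 10.20, 9.70 and 10.25 on BMP6h arrays and 8.65, 8.37 and 9.38 on BMP24h arrays. The BMP6h values lay within the control range except replicate 2, and every BMP24h value lay below every value of the other conditions. Rgs4 was 2.60-fold lower on BMP24h than on control arrays (log2 fold change -1.38, 95% interval -2.07 to -0.68, adjusted p = 0.294, limma). On BMP24h arrays it was 2.38-fold lower than on BMP6h arrays (log2 fold change -1.25, 95% interval -1.95 to -0.55, adjusted p = 0.767). At 6 hr the log2 fold change was -0.13 (95% interval -0.82 to 0.57).

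Of the 4736 genes, Rgs4 had the 2nd lowest log2 fold change for BMP24h against control and the lowest for BMP24h against BMP6h. The difference at 24 hr was -1.52 in batch 1 and -1.30 in batch 2, and between the times -1.55 and -1.10. When each array was left out in turn, the value against control ranged from -1.69 to -1.14. The adjusted p was 0.00197 for BMP24h against control and 0.00257 for BMP24h against BMP6h with array weights, which counted replicate 2 of BMP6h at 0.093 and replicate 1 of BMP24h at 5.76, and under which 3.63% and 2.39% of all genes passed. Over all alternative fits it ranged from 0.00197 to 1 against control. In whole cultures, fewer cells of a type and less RNA per cell cannot be told apart. The 21 measured markers of fibroblasts and matrix averaged 9.41 to 9.62 on control arrays, 9.45 to 9.51 on BMP6h arrays and 9.16 to 9.34 on BMP24h arrays. Of these, 14 lay below control at 24 hr, as did 2259 of all 4736 genes. The other 7 lay above, among them Thy1, with a mean of 12.89 and a log2 fold change of 0.25. Of the 14, 5 were past the study's thresholds (Dcn, Lum, Vim, Mgp and Igfbp3), where 2.05% of all genes were lower. By these thresholds Col1a1 was higher and Dcn lower at 6 hr, and Vim and Igfbp3 were lower between the times. The study reports Mgp and Igfbp3 as downregulated by BMP-7 in sympathetic neurons. Of the other markers, the neuronal Ddc was lower at 24 hr (log2 fold change -0.45) and between the times (-0.38). The endothelial Kdr was lower at 6 hr (-1.54) and 24 hr (-1.39), with control values of 4.76, 5.59 and 7.02. The part of these markers in the results at 24 hr was not tested.

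**Figure D3:**
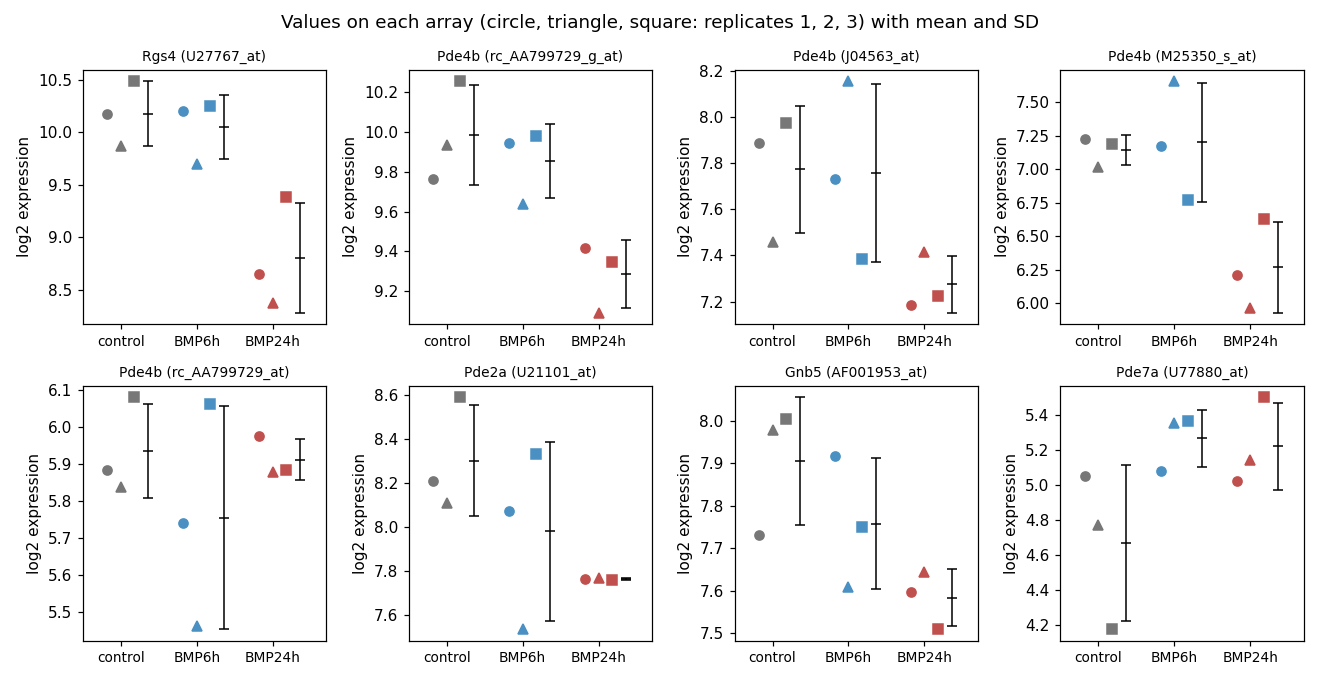
Points are log2 expression on each array for Rgs4, the 4 Pde4b probe sets, Pde2a, Gnb5 and Pde7a, with replicates 1, 2 and 3 as circle, triangle and square and the mean with SD of each condition beside them. The vertical scales differ and do not start at 0. BMP24h values lie below both other conditions for Rgs4 and for the Pde4b probe sets rc_AA799729_g_at and M25350_s_at, and the dimmest Pde4b probe set shows no such separation.

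The other RGS genes were closer to control. Rgs1, known from immune cells, had the largest of the remaining differences at 24 hr (log2 fold change -0.50, 95% interval -1.34 to 0.35) at a mean level of 4.59. Rgs8, which acts on Gi/o subunits, Rgs12 and Rgs14, multidomain proteins with binding sites for alpha subunits and Ras-family proteins, Rgs18, known from platelets, Rgs19 and Rgs22 had log2 fold changes between -0.23 and 0.19 at 24 hr. At 6 hr Rgs8 was higher by 0.36 on the log2 scale with an SD of 0.89 over the BMP6h arrays, and its second probe set gave -0.07.

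None of the 7 adenylyl cyclases passed the study's thresholds in the fit with the batch as a factor. Adcy2, a cyclase stimulated by beta-gamma dimers and the brightest of the family, had values of 8.81, 8.82 and 8.85 on control arrays, 8.69, 8.54 and 8.77 on BMP6h arrays and 8.65, 8.72 and 8.60 on BMP24h arrays. All treated values lay below control, with log2 differences of -0.16 after 6 hr and -0.17 after 24 hr, less than 1.2-fold. Adcy8, stimulated by calcium and calmodulin, had the highest value of the family at 24 hr, 0.42 (95% interval -0.05 to 0.90). Adcy6, inhibited by calcium, had the lowest, -0.34 (95% interval -0.90 to 0.23). Adcy4, like Adcy2 stimulated by beta-gamma dimers, had the highest log2 fold change of the members between the times, 0.36 (95% interval -0.06 to 0.77). Its log2 values were 5.07, 5.17 and 5.04 on BMP24h arrays, against 4.79, 4.53 and 4.88 on BMP6h arrays, and these did not overlap, while the control values of 4.96, 4.70 and 5.30 overlapped both. Adcy3, the cyclase of olfactory cilia, Adcy5, like Adcy6 inhibited by calcium, and Adcy10, the soluble cyclase activated by bicarbonate, differed from control by -0.06, 0.01 and -0.07 on the log2 scale at 24 hr. The 3 probe sets of Adcy5 ranged from -0.56 to 0.25 at 6 hr.

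Among the phosphodiesterases, Pde4b was lower at 24 hr. Pde4b belongs to the cyclic AMP-specific, rolipram-sensitive class, which has short and long isoforms made from separate starts. Its brightest probe set (rc_AA799729_g_at) had log2 values of 9.76, 9.93 and 10.26 on control arrays, 9.94, 9.64 and 9.98 on BMP6h arrays and 9.42, 9.09 and 9.35 on BMP24h arrays. The BMP24h values lay below all others, while those at 6 hr overlapped control. Pde4b was 1.62-fold lower on BMP24h than on control arrays (log2 fold change -0.70, 95% interval -1.12 to -0.28, adjusted p = 0.474, limma). It was 1.49-fold lower on BMP24h than on BMP6h arrays (log2 fold change -0.57, 95% interval -0.99 to -0.15, adjusted p = 0.939).

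The other 3 Pde4b probe sets did not all give this difference. M25350_s_at had values of 7.23, 7.02 and 7.19 on control arrays, 7.17, 7.65 and 6.77 on BMP6h arrays and 6.21, 5.96 and 6.63 on BMP24h arrays, a log2 fold change of -0.88 for BMP24h against control (95% interval -1.47 to -0.28) and -0.93 for BMP24h against BMP6h (95% interval -1.53 to -0.34). J04563_at gave -0.50 (95% interval -1.02 to 0.03) and -0.48 (95% interval -1.01 to 0.04). The dimmest, rc_AA799729_at, with a mean of 5.87, gave -0.02 and 0.16. At the brightest probe set the difference between BMP24h and control was -0.34 in batch 1 and -0.88 in batch 2, and between the times it was -0.53 and -0.59. Between the times the unadjusted p, 0.0136 with all arrays, exceeded 0.05 without BMP6h replicate 1 (0.0621) or BMP24h replicate 2 (0.0525). With array weights the log2 fold change against control was -0.45, with an adjusted p of 0.0335, where the alternatives ranged from 0.0335 to 1.

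**Figure D4:**
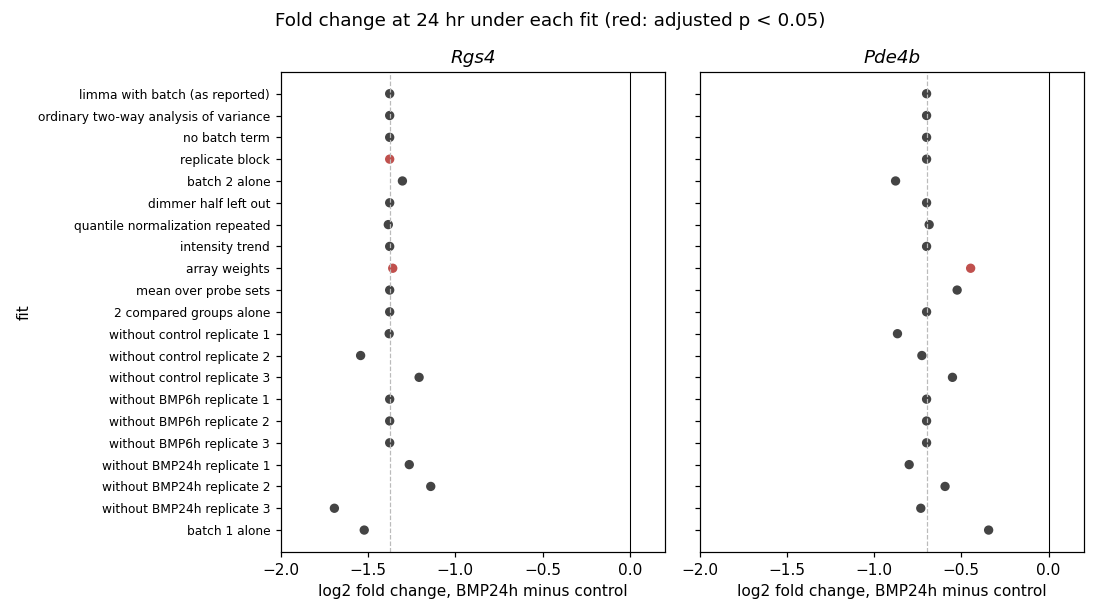
Points give the log2 fold change of BMP24h minus control for Rgs4 (left) and Pde4b (right) under the fit reported and each alternative fit, and red points had an adjusted p under 0.05. Batch 1 alone is a difference of 1 array per condition with no test. Rgs4 lay between -1.69 and -1.14 in all fits and Pde4b between -0.88 and -0.34.

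Pde2a, which hydrolyzes both cyclic nucleotides and is stimulated by cyclic GMP, had log2 values of 8.21, 8.11 and 8.59 on control arrays, 8.07, 7.54 and 8.34 on BMP6h arrays and 7.77, 7.77 and 7.76 on BMP24h arrays. The BMP24h values lay below control and within the BMP6h range. The log2 fold change for BMP24h against control was -0.54 (95% interval -1.06 to -0.02, adjusted p = 1, limma), with -0.44 in batch 1 and -0.59 in batch 2. The unadjusted p, 0.0434 with all arrays, exceeded 0.05 without control replicate 1 (0.067) or 3 (0.147), without BMP6h replicate 1 (0.0599), and without BMP24h replicate 1 (0.103), 2 (0.0918) or 3 (0.0928).

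Pde7a, a cyclic AMP-specific enzyme insensitive to rolipram, was the 1 member past the study's thresholds at 6 hr, at a mean level of 5.05. Its values were 5.05, 4.77 and 4.18 on control arrays, 5.08, 5.35 and 5.36 on BMP6h arrays and 5.02, 5.14 and 5.50 on BMP24h arrays. The log2 fold change was 0.60 at 6 hr (95% interval 0.03 to 1.17, adjusted p = 0.887, limma) and 0.55 at 24 hr (95% interval -0.01 to 1.12, adjusted p = 1). At 6 hr the unadjusted p, 0.0414 with all arrays, exceeded 0.05 without control replicate 2 (0.0629) or 3 (0.127), without BMP6h replicate 2 (0.0888) or 3 (0.102), and without BMP24h replicate 2 (0.0618). Without control replicate 3, the lowest array, the log2 fold change was 0.33. In batch 1 it was 0.03, and in batch 2 it was 0.88.

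Pde1c, a calcium and calmodulin-dependent enzyme, had the lowest log2 fold change of the members at 6 hr, -0.51 (adjusted p = 0.887). Its values were 4.66, 3.88 and 4.86 on BMP6h arrays, against 4.82, 4.65 and 5.46 on control arrays, and without replicate 2 of BMP6h it was -0.19. Pde5a, which is specific for cyclic GMP, gave the widest disagreement between probe sets of a gene at 24 hr, 0.12 at the brighter and -0.96 at the dimmer probe set, whose control values of 5.75, 5.18 and 6.93 were themselves far apart. At 24 hr the other phosphodiesterases had log2 fold changes between -0.13 and 0.21. They were Pde1b, Pde6d (a chaperone of prenylated proteins), Pde3a and Pde3b (inhibited by cyclic GMP), and Pde4a, Pde4c and Pde4d (close relatives of Pde4b). For the 17 genes with several probe sets, all probe sets had the same sign in 6 genes at 6 hr, 11 at 24 hr and 6 between the times.

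Other genes of G protein and cyclic nucleotide signaling were taken from a list of 60, of which 42 were measured. None passed an adjusted p of 0.05 with limma in any comparison. None passed with the analysis of variance either, under which 0 of all 4736 genes passed. By the study's thresholds, 0 differed at 6 hr; at 24 hr 1 was higher and 3 were lower than control (all genes 1.77% and 2.05%), and on BMP24h arrays 2 were higher and 3 lower than on BMP6h arrays (all genes 1.58% and 1.63%). The same numbers were counted on the unadjusted p alone. The median log2 fold change of the list was -0.03 at 6 hr, -0.02 at 24 hr and 0.03 between the times.

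The effector of the Gq class showed opposite differences in 2 of its isoforms. Plcb1, a phospholipase C-beta, had log2 values of 7.75, 7.53 and 7.98 on BMP24h arrays, against 8.73, 8.70 and 8.70 on control arrays (log2 fold change -0.96, adjusted p = 0.0604, limma), and its BMP6h values of 8.70, 8.76 and 8.68 overlapped control. Plcb3, another isoform, had 8.57, 8.70 and 8.08 on BMP24h arrays, against 7.31, 7.48 and 7.65 on control arrays (log2 fold change 0.97, adjusted p = 0.215). Neither group of values overlapped its control. Adcyap1, the precursor of the neuropeptide PACAP, whose receptor couples to stimulatory G proteins, had 7.77, 7.54 and 8.01 on BMP24h arrays, against 8.73, 8.68 and 8.74 on control arrays (log2 fold change -0.95, adjusted p = 0.141). Pkia, an inhibitor of the cyclic AMP-dependent kinase, was lower by a log2 fold change of -0.27 on BMP24h than on control arrays (adjusted p = 1). Between the times, Plcb1 (-0.96), Adcyap1 (-0.89) and Akap12 (-0.42), which anchors that kinase, were lower at 24 hr, and Plcb3 (0.70) and Prkg2 (0.50), a cyclic GMP-dependent kinase, were higher, by log2 fold change and the study's thresholds.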

How the data were processed

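The arrays were Affymetrix rat genome arrays of 9 samples, 3 per condition. The deposited values were log2 expression made by the authors in Partek Genomics Suite by RMA, after which they removed the batch effect. Batch means were equal to within 6.7e-05 after that step, so the batch was kept as a factor, as in the study's analysis of variance, and the fit had 5 residual degrees of freedom. The table held 8799 probe sets; 59 control probe sets were left out and 8740 tested. Gene names came from the platform annotation: 7006 probe sets named 1 gene, 308 several and 1426 none, and probe sets naming several were not used for members. The members and gene lists were chosen with earlier results of these data known.

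limma 3.58.1 (R 4.3.3) gave two-sided moderated tests, adjusted by Benjamini-Hochberg over all 8740 probe sets with a threshold of 0.05. Beside the adjusted test, the study's thresholds, a fold change of 1.2 or more at an unadjusted p below 0.05, were counted. Values are of the brightest probe set unless another is named, and other probe sets were given for genes whose probe sets differed most. Members were named with array values when they passed either rule in a comparison, had 1 of the 5 largest differences there, or had a probe set past the study's thresholds where the brightest was not, as were the brightest of each family and some members without overlap, which were chosen after their values were seen. Genes of the other lists were named when past either rule.

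The study describes cultures from 3 dissections, each giving all conditions; whether the replicate numbers mark these dissections is not given, and p-values measure the spread between these arrays. No 2 arrays were identical. The number of arrays limits the precision. Alternatives were the ordinary analysis of variance, omitting the batch, blocking on the replicate number, batch 2 alone, the dimmer probe sets left out, repeated quantile normalization, an intensity trend, array weights, the mean over probe sets, the compared groups alone and each array left out; batch 1 alone was added after seeing the data. The limma script was tested on simulated data. Of the other marker lists, endothelial and mural genes (12 of 19 measured) and macrophage and blood genes (12 of 18) had median log2 fold changes of 0.04 and -0.09 at 24 hr. Promoter windows came from RefSeq tables.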

Additional observations from a re-analysis of the deposited data

Results flagged for a closer look

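Rgs4 and Pde4b differed between the exposure times by the test of that difference, BMP24h against BMP6h, with a fold change of 1.2 or more at an unadjusted p below 0.05. Rgs4 had a log2 fold change of -1.25 (adjusted p = 0.767, limma), with BMP24h values below BMP6h values on 3 of 3 arrays. Pde4b had -0.57 (adjusted p = 0.939), with BMP24h below BMP6h on 3 of 3 arrays at its brightest probe set and 0.16 at its dimmest.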

How the results depend on the processing

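Without any replicate block, no member was called after adjustment except with array weights, which called Rgs4 and Pde4b (2 members) at 24 hr and between the times. Same-numbered arrays correlated from -0.74 to 0.53 in their deviations, and 3 of 18 best matches had the same number. These values cannot show whether the replicate numbers pair the arrays. The batch removal forces the deviations of replicate 1, the whole of batch 1, to cancel over the conditions. In batch 2, the differences between replicates 2 and 3 correlated at 0.05 for BMP6h and control. They correlated at 0.02 for BMP24h and control and at 0.40 for BMP24h and BMP6h. With the replicate number as a block, 1 member (Rgs4) was called at 24 hr, with an adjusted p of 0.035. In that fit 2 members passed the study's thresholds at 6 hr (Adcy8 and Pde1c, not Pde7a; 4.58% of all genes) and 5 did at 24 hr (Adcy8 and Gng11 beside Rgs4, Pde2a and Pde4b, not Gnb5; 5.26%). At 6 hr, 0 members passed these thresholds by analysis of variance, without the dimmer probe sets, with an intensity trend or with the 2 compared groups alone. Pde7a, with a mean of 5.05, lay below the median of 6.8 and so was not in the fit without the dimmer probe sets. Of all genes in each fit, 1.16%, 2.56%, 1.75% and 1.22% passed. Between the times, 5 did with array weights (8.04% of all genes). Leaving out single arrays gave 0 to 4 members at 6 hr (0 without control replicate 2 or 3, BMP6h replicate 2 or BMP24h replicate 2, and 4 without BMP6h replicate 3, where 6.95% of all genes passed), 2 to 5 at 24 hr (2 without control replicate 3 or BMP24h replicate 2) and 1 to 5 between the times (1 without BMP6h replicate 1 or BMP24h replicate 2, 4 without BMP6h replicate 3, with 8.55% of all genes, and 5 without BMP6h replicate 2, with 3.25%). Over the fits with single arrays left out, 0.908% to 6.95% of all genes passed at 6 hr and 2.28% to 5.74% at 24 hr. Between the times 1.71% to 8.55% did. Without the dimmer probe sets, 30 of 47 members remained. Their median was -0.0647 for BMP6h and -0.0476 for BMP24h against control on the log2 scale. With the mean over probe sets, the median of all members was -0.0304 for BMP24h. Over single arrays left out it ranged from -0.0505 (without control replicate 1) to 0.0272 (without BMP6h replicate 1) for BMP6h and from -0.015 to 0.0072 for BMP24h. Of the 42 other pathway genes, those called at 24 hr were 2 without the batch term, 3 without the dimmer probe sets, 2 under an intensity trend and 5 under array weights, and between the times 1, 1, 1 and 4. Of all genes in each fit, 0.443%, 0.905%, 0.486% and 3.63% were called at 24 hr. Between the times 0.0845%, 0.226%, 0.106% and 2.39% were. Pathway genes past the study's thresholds at 6 hr were 1 without the batch term, 1 with the block, 1 without the dimmer probe sets and 3 with array weights (0 to 1 over single arrays left out). The shares of all genes in each fit were 3.04%, 4.58%, 2.56% and 3.53%. At 24 hr the pathway genes past them were 7 without the batch term, 7 with the block, 10 with array weights and 7 with the 2 groups alone (3 to 7, with 7 without BMP6h replicate 2). The shares of all genes were 4.81%, 5.26%, 9.44% and 4.43%, and 5.74% without BMP6h replicate 2. Between the times the pathway genes past them were 3 in batch 2 alone and 8 with array weights (3 to 8, with 3 without BMP6h replicate 1 or BMP24h replicate 1 and 8 without BMP6h replicate 3). The shares of all genes were 0.971% and 8.04%, and 8.55% without BMP6h replicate 3. The causes were not tested. Over single named members, 554 of the values under alternatives kept direction and call, 30 lost and 13 gained the study's thresholds, and 45 moved by more than the replicate spread or changed sign while not called; no called value changed sign.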

Other observations

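Probe sets annotated to several genes were left out of the members. One shared by Gnai1 and Gnai3 had a mean of 9.09 and a log2 fold change of 0.07 at 24 hr, and one shared by Pde11a and Cyct had a mean of 3.73 and a value of 5.90 on replicate 2 of BMP6h, with 3.13 to 3.75 on all other arrays.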
